A study of Mus musculus with 4 samples.

Results

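The genes described here code for the phagocyte NADPH oxidase and for enzymes that are induced under oxidative stress or act on its products. Cybb, Cyba, Ncf1 and Ncf4 code for oxidase subunits, Hmox1 for haem oxygenase, Nos2 for inducible nitric oxide synthase and Sod2 for mitochondrial superoxide dismutase. These 7 genes were chosen by name and matched by symbol among the 55357 genes of the count tables, with 1 row found for each. Their identifiers are ENSMUSG00000015340 for Cybb, ENSMUSG00000006519 for Cyba, ENSMUSG00000015950 for Ncf1, ENSMUSG00000071715 for Ncf4, ENSMUSG00000005413 for Hmox1, ENSMUSG00000020826 for Nos2 and ENSMUSG00000006818 for Sod2.

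The phagocyte NADPH oxidase passes electrons from NADPH across a membrane onto oxygen, which makes superoxide. Cybb is the catalytic membrane subunit, Cyba is its membrane partner, and Ncf1 and Ncf4 are cytosolic subunits that join them when the cell is activated. Sod2 turns superoxide into hydrogen peroxide in mitochondria, Nos2 makes nitric oxide, and Hmox1 breaks down haem into biliverdin, carbon monoxide and iron. In the brain the oxidase is best known from microglia and from phagocytes that enter after injury, where its superoxide takes part in killing microbes and can harm nearby tissue.

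Cells from the injured (ipsilateral) brain hemisphere of wild-type mice with ischemic stroke were profiled by single-cell RNA sequencing. All 4 groups had hydrogel microspheres (MAPS) placed in the infarct cavity on day 5, and tissue was taken on day 14. In IL-4 C1q EV+MAPS, written IL-4/C1q EV here, the microspheres carried extracellular vesicles from reactive astrocytes. So did those of IL-1a TNFa C1q EV+MAPS, written IL-1a/TNFa/C1q EV. The microspheres of UT EV+MAPS, written UT EV, also carried extracellular vesicles, but the state of the astrocytes behind them is not taken as known here. These 3 groups gave the 3 EV libraries. MAPS had microspheres alone. What UT stands for, the age and strain of the mice and the number of animals behind a library are not in the labels. Each group had 1 library, so a group cannot be told apart from its library, its animals or its run, and no difference below has a replicate check. Healthy mice, which the labels mention, were not analysed here.

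Tissue was digested with enzymes, red blood cells were lysed and dead cells were removed, per the labels, with about 8000 cells aimed at per library. The files held 14592 barcodes in IL-4/C1q EV, 15138 in IL-1a/TNFa/C1q EV, 13076 in UT EV and 13920 in MAPS, and filters left 13617 cells in IL-4/C1q EV, 14243 in IL-1a/TNFa/C1q EV, 12263 in UT EV and 13178 in MAPS. UMIs (unique molecular identifiers, 1 for each captured mRNA molecule) had a median per barcode of 2462 in IL-4/C1q EV, 2615 in IL-1a/TNFa/C1q EV, 2663 in UT EV and 4541 in MAPS. MAPS stood apart from the EV libraries in depth and in mitochondrial UMIs, with a median of 1.41% against 0.551% to 0.577%. Its cells also fell into clusters of their own: 4915 and 1554 of its cells made up nearly all of 2 microglial clusters that held 23 and 11 cells of the EV libraries. Pairs of libraries shared 43 to 64 barcodes, at most 0.453% of the smaller library. Cells were placed in 19 classes by markers. All 10 microglial markers were detected in gated microglia of every library. Their summed level was 8123 CPM in IL-4/C1q EV, 7457 CPM in IL-1a/TNFa/C1q EV, 8550 CPM in UT EV and 19138 CPM in MAPS. All 8 monocyte/macrophage markers were also detected in gated microglia. They summed to 4399 CPM in IL-4/C1q EV, 6642 CPM in IL-1a/TNFa/C1q EV, 4477 CPM in UT EV and 2027 CPM in MAPS. The share of gated microglia in clusters named microglia was 82.4% in IL-4/C1q EV, 73.7% in IL-1a/TNFa/C1q EV, 81.7% in UT EV and 95.6% in MAPS.

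Levels are counts per 1000000 UMIs of a class (CPM) and intervals are 95% intervals for counting error alone. The tables count the 3′ ends of mRNAs, so levels of different genes are not set against each other. A ratio between 2 libraries was counted as higher or lower when its whole interval lay beyond 1.5-fold. Over the 4 libraries the kept cells held 351229 UMIs of Cyba, 32238 of Hmox1, 31198 of Sod2, 21985 of Ncf1, 15938 of Cybb, 10334 of Ncf4 and 140 of Nos2.

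The 250 bases before the start of Cybb and of Ncf1 are shown because Cybb varied widely between groups of microglia and Ncf1 did not follow it, as described further on. Sequences are from RefSeq on GRCm38.p6, read 5′ to 3′, and 4 of the 7 genes had an entry (Cybb, Cyba, Ncf1 and Sod2). Capitals mark the core of the interferon-stimulated response element on either strand, which is GAAA, any 2 bases and GAAA again. The Cybb stretch is chrX:9469325-9469574 and the Ncf1 stretch is chr5:134229626-134229875, both on the minus strand.
Cybb: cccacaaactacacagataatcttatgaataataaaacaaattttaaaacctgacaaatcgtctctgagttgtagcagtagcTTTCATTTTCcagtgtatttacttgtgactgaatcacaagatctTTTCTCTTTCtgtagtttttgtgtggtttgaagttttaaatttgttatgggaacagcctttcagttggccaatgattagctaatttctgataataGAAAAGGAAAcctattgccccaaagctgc
Ncf1: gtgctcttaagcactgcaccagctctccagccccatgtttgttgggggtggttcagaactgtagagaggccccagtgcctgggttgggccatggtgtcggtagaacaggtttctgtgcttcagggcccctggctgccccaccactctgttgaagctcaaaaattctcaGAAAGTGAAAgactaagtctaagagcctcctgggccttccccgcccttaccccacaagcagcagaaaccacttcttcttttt
The core matched at 3 places before Cybb and at 1 before Ncf1, and at 0 before Cyba and 0 before Sod2. Of 32851 RefSeq promoters of the same 250 bases, 2.98% held at least 1 match. The antioxidant response element core TGACNNNGC, which 10.2% of promoters held, was not among the letters of these 4 stretches, and neither were the PU.1 core GAGGAAGT (2.44% of promoters) and the NF-kB decamer GGGA, any 2 bases, TTCC (1.21%). The gamma-activated site TTCNNNGAA (7.02% of promoters) matched at 1 place before Ncf1 and at 1 before Sod2. All were searched on both strands. A match describes letters and not a bound site.

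Cybb was carried by myeloid cells, with higher levels in monocyte/macrophages than in microglia in each library. In monocyte/macrophages Cybb stood at 439 CPM (interval 415 to 463) in IL-4/C1q EV, 349 CPM (326 to 373) in IL-1a/TNFa/C1q EV, 483 CPM (451 to 516) in UT EV and 1161 CPM (1064 to 1265) in the 60 such cells of MAPS. MAPS was the highest and IL-1a/TNFa/C1q EV the lowest, and only the intervals of IL-4/C1q EV and UT EV overlapped. In microglia Cybb stood at 81.1 CPM (77.0 to 85.3) in IL-4/C1q EV, 63.3 CPM (60.0 to 66.8) in IL-1a/TNFa/C1q EV, 63.2 CPM (59.7 to 66.9) in UT EV and 87.5 CPM (84.7 to 90.4) in MAPS. IL-4/C1q EV and MAPS lay above the other 2 libraries and their intervals overlapped slightly.

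Few microglia had a Cybb UMI. The share was 12.6% of 5934 microglia in IL-4/C1q EV, 11.3% of 6501 in IL-1a/TNFa/C1q EV, 11% of 5400 in UT EV and 12.8% of 7086 in MAPS (median depths of 2469 to 2786.5 UMIs in the EV libraries and 4606.5 in MAPS). Oligodendrocytes, which should lack the oxidase, had a Cybb UMI in 1.36% of cells in IL-4/C1q EV, 2.63% in IL-1a/TNFa/C1q EV, 1.22% in UT EV and 2.48% in MAPS, at median depths of 3751 to 7289.5 UMIs. The microglial share thus lay above this background in every library. With each cell thinned to 1000 UMIs, 4.42% of microglia had one in IL-4/C1q EV, 3.49% in IL-1a/TNFa/C1q EV, 3.01% in UT EV and 3.82% in MAPS. In monocyte/macrophages the unthinned share was 69.4% in IL-4/C1q EV, 62.2% in IL-1a/TNFa/C1q EV, 76.7% in UT EV and 91.7% in MAPS.

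Other haematopoietic classes carried Cybb as well. Border macrophages held 295 CPM (250 to 346) in IL-4/C1q EV, 285 CPM (242 to 333) in IL-1a/TNFa/C1q EV and 252 CPM (216 to 292) in UT EV, with all 3 intervals overlapping. B cells held 226 CPM (157 to 316) in IL-4/C1q EV, 131 CPM (103 to 164) in IL-1a/TNFa/C1q EV and 289 CPM (244 to 340) in MAPS. Plasmacytoid dendritic cells, which make interferon, held 384 CPM (310 to 470) in the 76 such cells of IL-1a/TNFa/C1q EV. In IL-4/C1q EV the order of levels was monocyte/macrophages, border macrophages, B cells, neutrophils at 106 CPM (80.4 to 138) and microglia. The intervals of border macrophages and B cells overlapped in it, as did those of neutrophils and microglia. T cells stood at 7.49 to 21.5 CPM and endothelial cells at 2.74 to 14.8 CPM over the 4 libraries, against 7.65 to 16.8 CPM in oligodendrocytes.

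**Figure D1:**
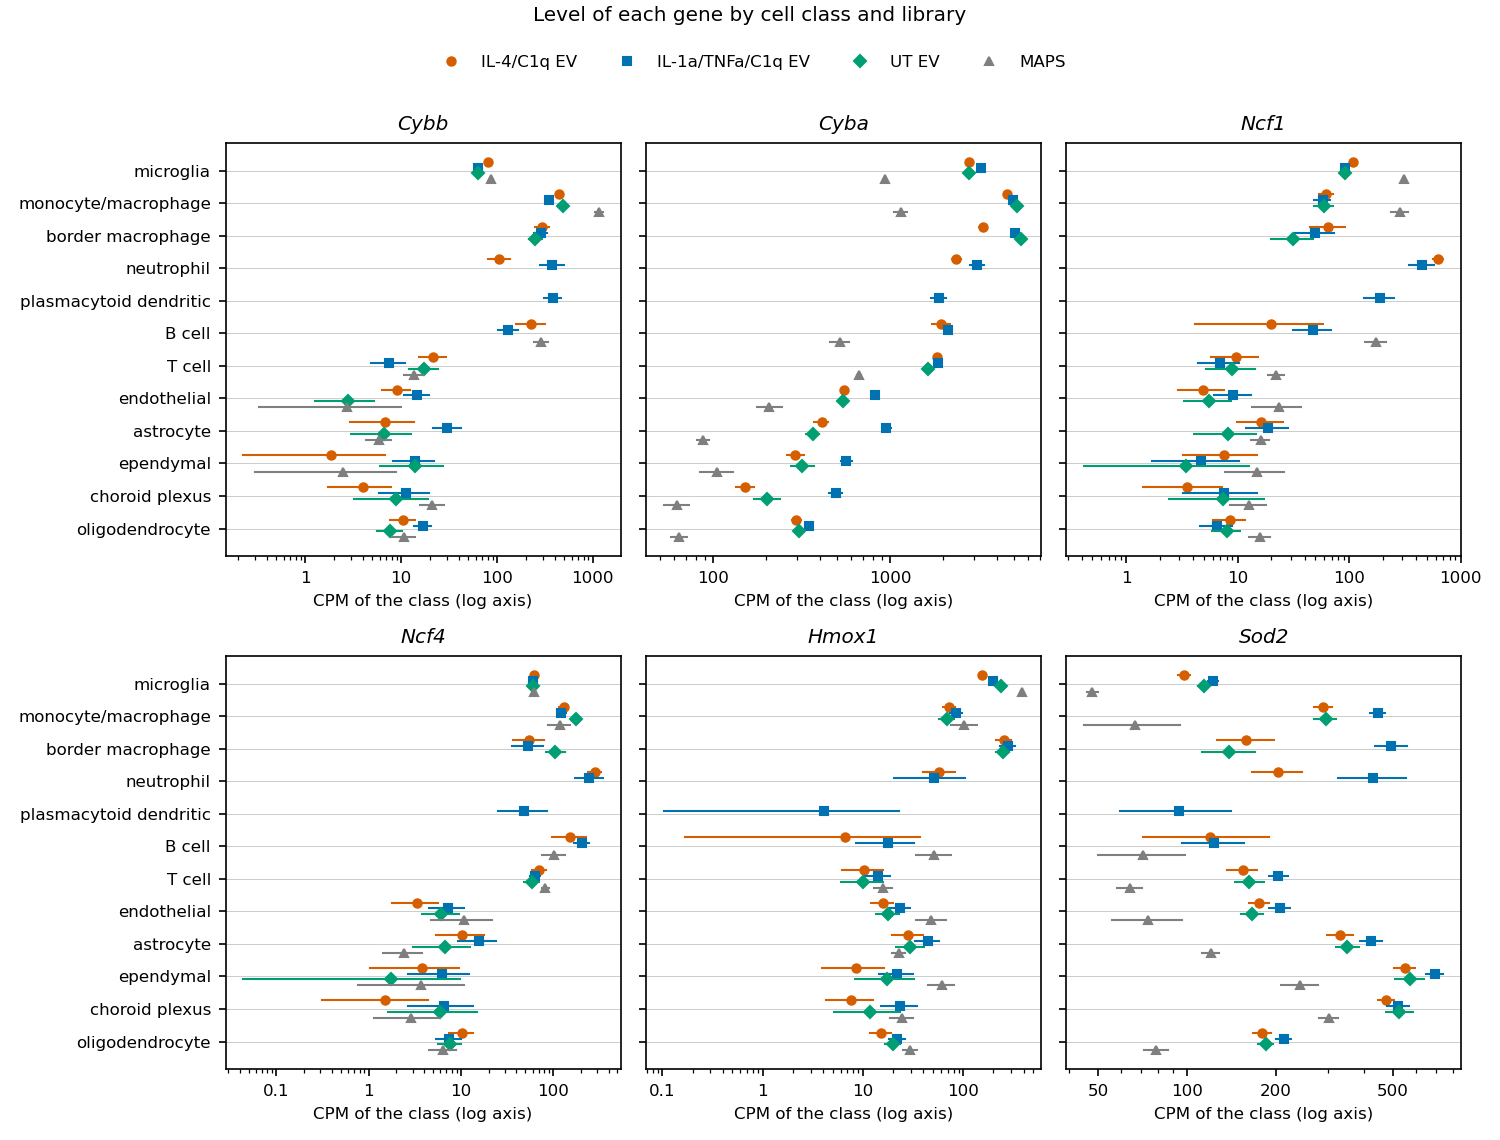
Level of 6 genes (CPM of the class, log axis) in 12 cell classes, with 1 symbol per library for IL-4/C1q EV, IL-1a/TNFa/C1q EV, UT EV and MAPS and lines for 95% counting intervals. Classes under 50 cells in a library and levels of 0 are not drawn, and the reader should see Cybb high in monocyte/macrophages, Hmox1 highest in microglia and border macrophages, and in microglia the grey MAPS symbols apart from the rest for Cyba, Ncf1, Hmox1 and Sod2.

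Cyba was the broadest of the oxidase genes and was found in every class. In microglia it stood at 2801 CPM in IL-4/C1q EV, 3249 CPM in IL-1a/TNFa/C1q EV, 2788 CPM in UT EV and 935 CPM in MAPS. The EV libraries lay together and MAPS lay lowest. Monocyte/macrophages showed the same order of MAPS against the others, at 4607 CPM in IL-4/C1q EV, 4938 CPM in IL-1a/TNFa/C1q EV, 5187 CPM in UT EV and 1152 CPM in MAPS. In T cells Cyba stood at 1848, 1857, 1642 and 670 CPM in IL-4/C1q EV, IL-1a/TNFa/C1q EV, UT EV and MAPS, and in oligodendrocytes at 296, 346, 306 and 64.3 CPM in IL-4/C1q EV, IL-1a/TNFa/C1q EV, UT EV and MAPS. The low level in MAPS was thus shared by cell classes outside the myeloid lineage.

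Ncf1, the organiser that the active oxidase assembles around, had a pattern of its own: neutrophils carried more of it than microglia in both libraries with enough neutrophils, and MAPS microglia lay highest. In neutrophils it stood at 632 CPM (566 to 703) in the 408 cells of IL-4/C1q EV and 451 CPM (346 to 578) in the 60 cells of IL-1a/TNFa/C1q EV. UT EV and MAPS had 39 and 15 neutrophils, with 40 and 52 Ncf1 UMIs. In microglia Ncf1 stood at 108 CPM (103 to 113) in IL-4/C1q EV, 92.9 CPM (88.8 to 97.0) in IL-1a/TNFa/C1q EV, 91.1 CPM (86.9 to 95.5) in UT EV and 309 CPM (304 to 315) in MAPS. MAPS stood far above the EV libraries, among which IL-4/C1q EV was the highest. Monocyte/macrophages held less in the EV libraries, with 61.9 CPM in IL-4/C1q EV, 57.9 CPM in IL-1a/TNFa/C1q EV and 59.2 CPM in UT EV. In MAPS they stood at 286 CPM in 60 cells, with an interval that overlapped that of microglia. In IL-1a/TNFa/C1q EV plasmacytoid dendritic cells held 188 CPM (138 to 251), above the microglia of that library.

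Ncf4, whose product binds a membrane lipid of the phagosome, was nearly level between libraries in microglia by CPM. Scaling for RNA composition (TMM), given further on, put UT EV above MAPS. It stood at 62.0 CPM (58.5 to 65.7) in IL-4/C1q EV, 60.5 CPM (57.3 to 63.9) in IL-1a/TNFa/C1q EV, 60.5 CPM (57.1 to 64.1) in UT EV and 62.6 CPM (60.2 to 65.0) in MAPS, and all intervals overlapped. Neutrophils held 283 CPM (240 to 332) in IL-4/C1q EV and 247 CPM (171 to 345) in IL-1a/TNFa/C1q EV. T cells carried Ncf4 at 58.6 to 82.5 CPM over the 4 libraries, near the microglial level, whereas Ncf1 in T cells stood at 6.91 to 22.2 CPM. B cells held 153 CPM (97.1 to 230) in IL-4/C1q EV, 207 CPM (171 to 248) in IL-1a/TNFa/C1q EV and 103 CPM (76.8 to 135) in MAPS. Oligodendrocytes stood at 6.46 to 10.3 CPM.

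Hmox1 was mainly a microglial transcript: gated microglia held 74.5% of its UMIs in IL-4/C1q EV, 77.7% in IL-1a/TNFa/C1q EV, 81.4% in UT EV and 94.3% in MAPS. The microglial level was 153 CPM (147 to 159) in IL-4/C1q EV, 196 CPM (190 to 202) in IL-1a/TNFa/C1q EV, 238 CPM (231 to 245) in UT EV and 389 CPM (383 to 395) in MAPS. On this scale the 4 libraries fell in that order with no overlap, but TMM scaling, which allows for differences in RNA composition, brought the ratio over MAPS to 1.15 for UT EV and 1.07 for IL-1a/TNFa/C1q EV. Border macrophages, known to take up haemoglobin, held 254 CPM (212 to 302) in IL-4/C1q EV, 277 CPM (235 to 325) in IL-1a/TNFa/C1q EV and 247 CPM (212 to 287) in UT EV. Monocyte/macrophages held less, at 71.7 CPM in IL-4/C1q EV, 85.4 CPM in IL-1a/TNFa/C1q EV, 68.5 CPM in UT EV and 102 CPM in MAPS, and their intervals overlapped across libraries.

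The share of microglia with a Hmox1 UMI followed the level, at 26.1% in IL-4/C1q EV, 31.2% in IL-1a/TNFa/C1q EV, 37.3% in UT EV and 52.0% in MAPS. Thinned to 1000 UMIs a cell, it was 12.9% in IL-4/C1q EV, 16.1% in IL-1a/TNFa/C1q EV, 19.2% in UT EV and 23.3% in MAPS, so the order by CPM held at equal depth. Oligodendrocytes had one in 5.33% of cells in IL-4/C1q EV, 6.29% in IL-1a/TNFa/C1q EV, 6.39% in UT EV and 12.2% in MAPS. Haem is the substrate of the enzyme, so haemoglobin transcripts are given beside it. Hbb-bs, a beta-globin gene, stood at 158 CPM in microglia of IL-4/C1q EV, 239 CPM in IL-1a/TNFa/C1q EV, 252 CPM in UT EV and 5.32 CPM in MAPS. The summed level of the 5 erythroid markers in microglia was 260 CPM in IL-4/C1q EV, 385 CPM in IL-1a/TNFa/C1q EV, 423 CPM in UT EV and 8.76 CPM in MAPS. It had the order of Hmox1 among the EV libraries and the opposite order against MAPS, and its part in the Hmox1 levels was not tested.

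Nos2, the inducible nitric oxide synthase of activated macrophages, was close to the limit of detection and in the EV libraries was found mainly in endothelial cells. All kept cells held 59 Nos2 UMIs in IL-4/C1q EV, 23 in IL-1a/TNFa/C1q EV, 36 in UT EV and 22 in MAPS. Endothelial cells carried 34 of them in IL-4/C1q EV, 20 in IL-1a/TNFa/C1q EV, 25 in UT EV and 8 in MAPS. That is a level of 8.74 CPM (6.05 to 12.2) in IL-4/C1q EV, 6.57 CPM (4.01 to 10.1) in IL-1a/TNFa/C1q EV, 7.70 CPM (4.98 to 11.4) in UT EV and 10.97 CPM (4.73 to 21.6) in MAPS, with all intervals overlapping. The UMIs were spread over cells: 31 of 1527 endothelial cells had one in IL-4/C1q EV, 20 of 1052 in IL-1a/TNFa/C1q EV, 24 of 1256 in UT EV and 7 of 142 in MAPS. Most lay in 1 endothelial cluster of the EV libraries led by Tmem252, Srarp and Ly6c1, and MAPS had its 8 in another led by Adgrf5 and Ptprb.

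Oligodendrocytes had 0 Nos2 UMIs in every library, which allows up to 0.669 CPM in IL-4/C1q EV, 0.516 CPM in IL-1a/TNFa/C1q EV, 0.478 CPM in UT EV and 0.554 CPM in MAPS. The endothelial level thus lay above this background. Microglia had 2 Nos2 UMIs in IL-4/C1q EV, 0 in IL-1a/TNFa/C1q EV, 4 in UT EV and 2 in MAPS. Monocyte/macrophages had 12 in IL-4/C1q EV, 0 in IL-1a/TNFa/C1q EV, 2 in UT EV and 0 in MAPS. The 12 came from 5 of 563 cells, with 5 UMIs in 1 cell. The 9 Nos2 UMIs of MAPS fibroblasts all came from 1 cell.

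**Figure D2:**
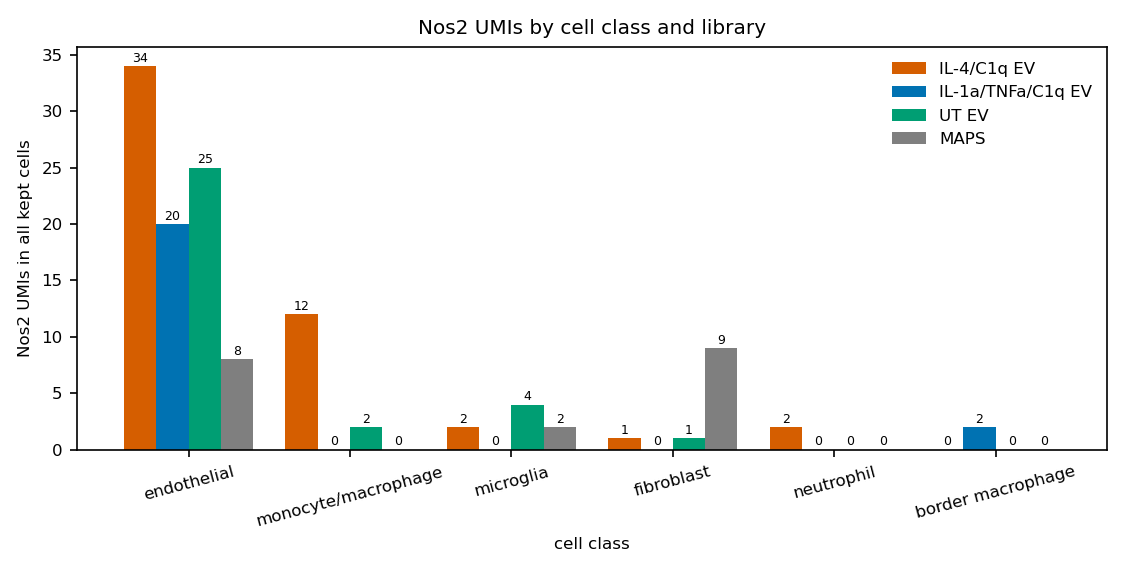
Bars give the Nos2 UMIs in all kept cells of 6 classes, with the number on each bar, for IL-4/C1q EV, IL-1a/TNFa/C1q EV, UT EV and MAPS. Endothelial cells hold 34, 20, 25 and 8 of them, and microglia at most 4 in any library.

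Sod2 was present in every class and highest in cells that line the ventricles. Ependymal cells held 549 CPM (505 to 596) in IL-4/C1q EV, 694 CPM (649 to 741) in IL-1a/TNFa/C1q EV, 569 CPM (509 to 634) in UT EV and 242 CPM (209 to 278) in MAPS. Choroid plexus held 474, 520, 525 and 303 CPM and astrocytes 330, 421, 350 and 121 CPM in IL-4/C1q EV, IL-1a/TNFa/C1q EV, UT EV and MAPS. MAPS was the lowest in all 3 classes. Monocyte/macrophages held 290 CPM (271 to 310) in IL-4/C1q EV, 444 CPM (418 to 471) in IL-1a/TNFa/C1q EV, 295 CPM (271 to 321) in UT EV and 66.6 CPM (44.9 to 95.1) in MAPS. IL-1a/TNFa/C1q EV thus lay apart on the high side in these cells, while IL-4/C1q EV and UT EV overlapped. Microglia held 98.0 CPM in IL-4/C1q EV, 123 CPM in IL-1a/TNFa/C1q EV, 114 CPM in UT EV and 47.9 CPM in MAPS.

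Between EV libraries, microglia showed no member past 1.5-fold. For IL-4/C1q EV over UT EV, 0 of the 6 genes with enough UMIs were counted, where 1.67% of 12666 genes were. The nearest was Hmox1, with a ratio of 0.644 (0.614 to 0.675), whose interval crossed the 1.5-fold line by little. Cybb had a ratio of 1.28 (1.19 to 1.38), Ncf1 1.18 (1.11 to 1.26) and Sod2 0.859 (0.806 to 0.914), intervals that leave out 1 but stay inside 1.5-fold. Cyba at 1.004 (0.992 to 1.02) and Ncf4 at 1.02 (0.943 to 1.11) included 1. Over IL-1a/TNFa/C1q EV the ratios for IL-4/C1q EV were 1.28 for Cybb, 0.780 for Hmox1 and 0.796 for Sod2, again 0 of 6 counted where 2.35% of genes were. For IL-1a/TNFa/C1q EV over UT EV, 0 of 6 were counted where 1.28% of genes were, and Cybb had a ratio of 1.001 (0.926 to 1.08). The comparisons share libraries.

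The call for Hmox1 between IL-4/C1q EV and UT EV depended on the setting. Hmox1 passed the 1.5-fold line, lower in IL-4/C1q EV, when cells were thinned to equal depth (0.584), when microglia were taken as clusters (0.563, which leaves out the unnamed cluster 22 described further on) and when doublets were kept (0.633).

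EV microglia and MAPS microglia differed for 4 of the 6 genes, but most genes differed between them. For UT EV over MAPS, Cyba at 2.98 (2.94 to 3.02) and Sod2 at 2.38 (2.24 to 2.53) were higher in UT EV, where 8.08% of genes were, and Ncf1 at 0.295 (0.280 to 0.310) and Hmox1 at 0.611 (0.591 to 0.632) were lower, where 54.4% of genes were. The same 4 genes passed in the same direction for IL-4/C1q EV over MAPS (7.31% of genes higher, 56.5% lower) and for IL-1a/TNFa/C1q EV over MAPS (8.52% higher, 60.5% lower). These comparisons share the MAPS library. The median log2 ratio of all genes was -0.82 for UT EV over MAPS, against which Hmox1 at -0.71 and Cybb at -0.47 lay above and Ncf1 at -1.76 lay below. With TMM scaling, which moved that median to -0.16, the Hmox1 ratio turned to 1.15 for UT EV over MAPS, 1.07 for IL-1a/TNFa/C1q EV over MAPS and 0.775 for IL-4/C1q EV over MAPS. For UT EV over MAPS it brought the Cybb ratio to 1.36 and the Ncf4 ratio to 1.82, while Cyba, Sod2 and Ncf1 kept their directions. The microglia compared sat in different clusters, led by Slc2a5 and P2ry12 or by Lpl and Cst7 in MAPS and by Il1a and Crybb1 in the EV libraries.

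**Figure D3:**
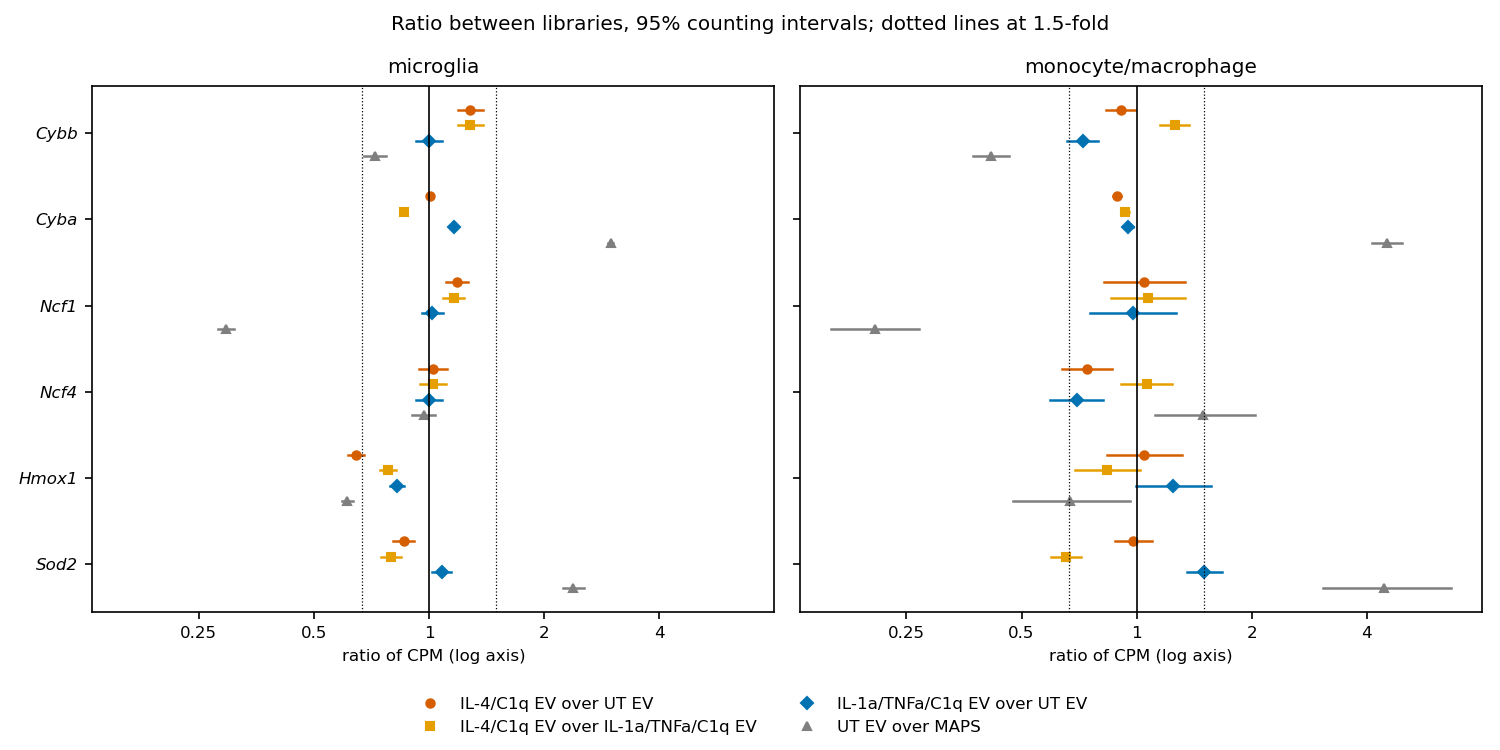
Ratios of CPM (log axis) for 6 genes in microglia and in monocyte/macrophages, with lines for 95% counting intervals and dotted lines at 1.5-fold, for IL-4/C1q EV over UT EV, IL-4/C1q EV over IL-1a/TNFa/C1q EV, IL-1a/TNFa/C1q EV over UT EV and UT EV over MAPS. Among the EV libraries no interval lies wholly beyond a dotted line, while Cyba, Ncf1 and Sod2 lie far out for UT EV over MAPS in both classes.

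In monocyte/macrophages the EV libraries again had 0 of 6 genes past 1.5-fold, where 1.83% of genes passed for IL-4/C1q EV over UT EV, 3.03% for IL-4/C1q EV over IL-1a/TNFa/C1q EV and 3.32% for IL-1a/TNFa/C1q EV over UT EV. Sod2 came nearest, with a ratio of 0.653 (0.596 to 0.714) for IL-4/C1q EV over IL-1a/TNFa/C1q EV and 1.503 for IL-1a/TNFa/C1q EV over UT EV. Ncf4 had a ratio of 0.740 (0.637 to 0.861) for IL-4/C1q EV over UT EV and 0.697 (0.594 to 0.817) for IL-1a/TNFa/C1q EV over UT EV. Cybb had 1.26 for IL-4/C1q EV over IL-1a/TNFa/C1q EV and 0.723 (0.657 to 0.795) for IL-1a/TNFa/C1q EV over UT EV. With TMM scaling the first of these Sod2 ratios was 0.608 and passed. Against the 60 cells of MAPS, UT EV had Cyba at 4.50 and Sod2 at 4.43 (7.71% of genes higher) and Cybb at 0.416 and Ncf1 at 0.207 (30.7% of genes lower), where TMM scaling brought Cybb to 0.875. The gate is less sure here: 52.8% to 63.6% of these cells in the EV libraries and 24 of 60 in MAPS lay near its limit, against 1.47% to 9.29% of microglia.

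Border macrophages and neutrophils, both small classes, gave some differences between EV libraries that passed 1.5-fold. In border macrophages Sod2 stood at 159 CPM in IL-4/C1q EV, 494 CPM in IL-1a/TNFa/C1q EV and 139 CPM in UT EV. The ratio was 0.323 (0.249 to 0.415) for IL-4/C1q EV over IL-1a/TNFa/C1q EV, where 0.938% of genes were lower, and 3.54 (2.80 to 4.51) for IL-1a/TNFa/C1q EV over UT EV, where 1.41% were higher. The 8 monocyte/macrophage markers summed to 15340 CPM in border macrophages of IL-4/C1q EV, 29860 CPM in IL-1a/TNFa/C1q EV and 13962 CPM in UT EV, so they moved with Sod2. Ccr2 and Ly6c2 were at 0 in IL-4/C1q EV, none of the 8 was at 0 in IL-1a/TNFa/C1q EV, and Ccr2, Ly6c2 and Plac8 were at 0 in UT EV. The part of these markers in the Sod2 levels was not tested. In cells thinned to 1000 UMIs the ratios were 0.531 (0.308 to 0.895) and 2.23 (1.23 to 4.24), so neither passed.

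Cyba in border macrophages had a ratio of 0.611 (0.577 to 0.647) for IL-4/C1q EV over UT EV, where 2.49% of genes were lower, and 0.717 (0.613 to 0.838) in thinned cells, which did not pass. The erythroid markers summed to 218 CPM in IL-4/C1q EV, 205 CPM in IL-1a/TNFa/C1q EV and 2551 CPM in UT EV, with 4 of 5 seen and Alas2 at 0 in each, and their part was not tested. In neutrophils 0 of 6 genes passed for IL-4/C1q EV over UT EV, where 1.24% of genes did and UT EV had 39 cells. For IL-4/C1q EV over IL-1a/TNFa/C1q EV, Cybb at 0.281 (0.189 to 0.417) and Sod2 at 0.473 (0.342 to 0.661) were lower, where 3.45% of genes were. In thinned cells Cybb was at 0.499 (0.238 to 1.12) and no longer passed, while Sod2 at 0.416 (0.266 to 0.663) did. The monocyte/macrophage markers summed to 2817 CPM in neutrophils of IL-4/C1q EV, with Ccr2 at 0, and 5497 CPM in IL-1a/TNFa/C1q EV, with none of the 8 at 0, and their part was not tested.

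Astrocytes and endothelial cells of IL-1a/TNFa/C1q EV held more Cybb than those of UT EV. In astrocytes Cybb stood at 30.4 CPM against 6.67 CPM, a ratio of 4.55 (2.16 to 10.7), and Cyba at 955 CPM against 365 CPM, a ratio of 2.61 (2.35 to 2.91), where 1.83% of genes were higher. In endothelial cells Cybb stood at 14.8 CPM against 2.77 CPM, a ratio of 5.33 (2.57 to 12.4), where 0.591% of genes were higher, and at 8.996 CPM in IL-4/C1q EV, a ratio of 3.24 (1.53 to 7.68) over UT EV, where 0.767% were higher. UT EV had 9 Cybb UMIs in each of these classes, and none of these 4 ratios passed in thinned cells, where Cyba in astrocytes was at 1.71 (1.38 to 2.12). Lyz2, a gene of macrophages, was higher beside Cybb in both classes of IL-1a/TNFa/C1q EV, but in endothelial cells of IL-4/C1q EV it lay below UT EV while Cybb lay above. It stood at 725 CPM in astrocytes of IL-4/C1q EV, 1681 CPM in IL-1a/TNFa/C1q EV and 434 CPM in UT EV, and at 357 CPM in endothelial cells of IL-4/C1q EV, 1847 CPM in IL-1a/TNFa/C1q EV and 511 CPM in UT EV. Its part in the Cybb levels was not tested. The rise of Cybb was not confined to these classes. Oligodendrocytes, which should lack the oxidase, held 16.8 CPM in IL-1a/TNFa/C1q EV against 7.65 CPM in UT EV.

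Between microglial clusters Cybb varied far more than between libraries. Cells were clustered with the 7 genes left out, and levels by cluster were added after the values by class had been seen. In the largest EV cluster, number 32, led by Il1a and Crybb1, Cybb stood at 11.2 CPM in IL-4/C1q EV, 9.80 CPM in IL-1a/TNFa/C1q EV and 8.63 CPM in UT EV. These levels lay within the 7.65 to 16.8 CPM of oligodendrocytes, taken above as background. The ratios to cluster 32 are thus ratios to a level near background. In cluster 20, led by Spp1 and Cst7 and named microglia, Cybb stood at 68.4 CPM in IL-4/C1q EV, 46.2 CPM in IL-1a/TNFa/C1q EV and 73.1 CPM in UT EV. The ratio of cluster 20 to cluster 32 was 6.13 (4.52 to 8.39) for IL-4/C1q EV, 4.71 (3.51 to 6.35) for IL-1a/TNFa/C1q EV and 8.47 (6.52 to 11.1) for UT EV. Cluster 22, led by Saa3, Apoc4 and Apoc1, was left with no name: the gate placed 84.7% of its cells in microglia, but its 10 leading genes included Lyz2 and none of the microglial markers. Clusters 0, 20, 23, 31 and 32 also had no microglial marker among their 10. They kept the name microglia because no marker of another class was there. Cybb in cluster 22 stood at 153 CPM in IL-4/C1q EV, 103 CPM in IL-1a/TNFa/C1q EV and 123 CPM in UT EV. The ratio of cluster 22 to cluster 32 was 13.7 (10.5 to 18.2) for IL-4/C1q EV, 10.5 (8.38 to 13.3) for IL-1a/TNFa/C1q EV and 14.2 (11.2 to 18.3) for UT EV. MAPS showed a like gap between its own clusters, with 162 CPM in cluster 0 (Lpl, Cst7) and 8.71 CPM in cluster 1 (Slc2a5, P2ry12), a ratio of 18.6 (16.0 to 21.6). Cluster 1 also lay within the range of oligodendrocytes. Cluster 24, led by Fabp4 and Gpnmb and gated 30.0% as microglia and 29.6% as monocyte/macrophages, held 362 to 419 CPM in the EV libraries and 878 CPM in MAPS. Within clusters the Cybb ratio of IL-4/C1q EV to UT EV was 0.689 (0.460 to 1.07) in cluster 23, 0.813 (0.404 to 1.64) in cluster 31 and 0.936 (0.757 to 1.15) in cluster 20. It was 1.10 (1.03 to 1.17) in cluster 24, 1.25 (1.11 to 1.41) in cluster 22 and 1.29 (0.911 to 1.83) in cluster 32.

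Cyba and Ncf4 varied less between these clusters and Ncf1 varied the other way. Cyba was 1.43, 1.53 and 1.62 times as high in cluster 22 as in cluster 32 in IL-4/C1q EV, IL-1a/TNFa/C1q EV and UT EV. The same ratio for Ncf4 was 0.882 (0.740 to 1.05) for IL-4/C1q EV, 0.861 (0.754 to 0.983) for IL-1a/TNFa/C1q EV and 0.954 (0.816 to 1.11) for UT EV. For Ncf1 it was 0.480 (0.413 to 0.556) for IL-4/C1q EV, 0.432 (0.386 to 0.482) for IL-1a/TNFa/C1q EV and 0.567 (0.496 to 0.647) for UT EV. In the named cluster 20 the Ncf1 ratio to cluster 32 was 0.511 (0.428 to 0.607) for IL-4/C1q EV, 0.531 (0.448 to 0.627) for IL-1a/TNFa/C1q EV and 0.607 (0.521 to 0.705) for UT EV. Genes of 1 enzyme complex thus took opposite directions between the same clusters.

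Between clusters 32 and 22, and between the 2 MAPS clusters, Hmox1 ran opposite to Cybb, whereas cluster 31, led by Crybb1, was low in both. Cluster 32 held 192 CPM (181 to 204) of Hmox1 in IL-4/C1q EV, 300 CPM (288 to 311) in IL-1a/TNFa/C1q EV and 351 CPM (339 to 363) in UT EV. Cluster 22 held 124, 138 and 113 CPM in IL-4/C1q EV, IL-1a/TNFa/C1q EV and UT EV. MAPS had 212 CPM in cluster 0 and 541 CPM in cluster 1. The lower level in IL-4/C1q EV lay in some clusters and not in others. The ratio of IL-4/C1q EV to UT EV was 0.547 (0.510 to 0.587) in cluster 32 and 0.667 (0.549 to 0.816) in cluster 23, led by Ccl12 and Cxcl10. It was 0.699 (0.592 to 0.823) in cluster 20, 1.10 (0.968 to 1.25) in cluster 22, 1.12 (0.990 to 1.26) in cluster 24 and 1.08 (0.820 to 1.43) in cluster 31. In cluster 20 the ratio of IL-1a/TNFa/C1q EV to UT EV was also low, at 0.663 (0.562 to 0.781). Cluster 31 held 97.2 to 106 CPM of Hmox1 and 15.5 to 19.0 CPM of Cybb in the EV libraries. Cluster 23 held 1564 cells of IL-4/C1q EV, 148 of IL-1a/TNFa/C1q EV, 160 of UT EV and 47 of MAPS. In cluster 24, Sod2 passed 1.5-fold between EV libraries, and Nos2 did so only because the minimum of 30 UMIs was not applied to clusters. The share of all genes past 1.5-fold between libraries within a cluster was not computed. Sod2 stood at 279 CPM (265 to 293) in IL-4/C1q EV, 469 CPM (450 to 488) in IL-1a/TNFa/C1q EV and 230 CPM (216 to 243) in UT EV. Nos2 had 16 UMIs in IL-4/C1q EV, 2 UMIs in IL-1a/TNFa/C1q EV and 4 UMIs in UT EV, with a ratio of 7.66 (1.80 to 68.6) for IL-4/C1q EV over IL-1a/TNFa/C1q EV that rests on these few UMIs.

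**Figure D4:**
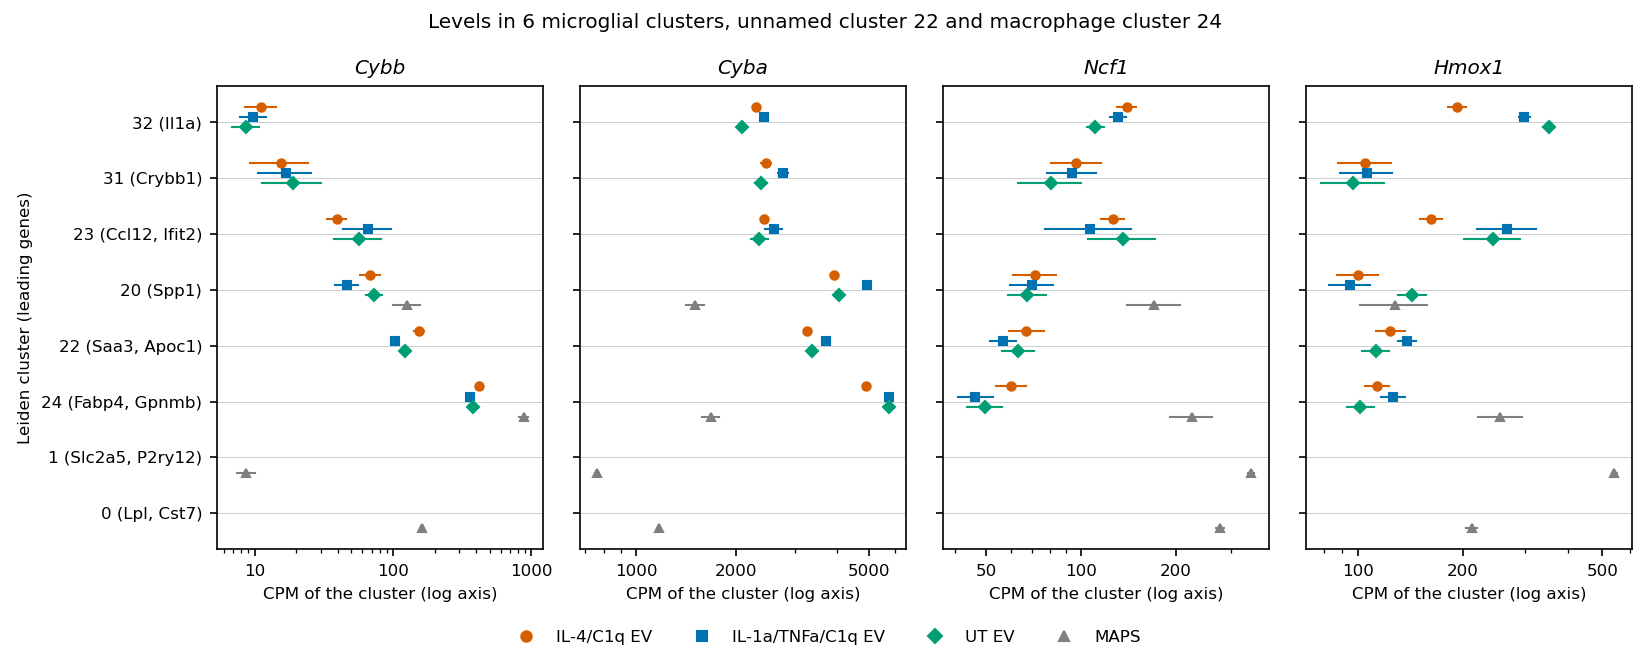
Levels of Cybb, Cyba, Ncf1 and Hmox1 (CPM of the cluster, log axes) in 6 clusters named microglia, in the unnamed cluster 22 and in the macrophage cluster 24, each given with leading genes, with symbols for the library and lines for 95% counting intervals. Cluster and library pairs under 50 cells are not drawn, and the reader should see Cybb climb from about 11.2 CPM in cluster 32 to 419 CPM in cluster 24 of IL-4/C1q EV while Ncf1 and Hmox1 do not.

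Cybb was higher in gated microglia with more interferon-response UMIs and in those with more disease-associated UMIs, in all 4 libraries. Over all libraries the gate held 2584 cells of the unnamed cluster 22 and 712 of the macrophage cluster 24, both high in Cybb. The part of these cells in the ratios below was not tested. Cells were first split by whether they held 3 or more UMIs of 12 interferon-response genes, which do not include the genes described here. That put 5278 microglia of IL-4/C1q EV, 2340 of IL-1a/TNFa/C1q EV, 2397 of UT EV and 2288 of MAPS in the higher part, and left 656 in IL-4/C1q EV, 4161 in IL-1a/TNFa/C1q EV, 3003 in UT EV and 4798 in MAPS in the lower part. Cybb stood at 85.2 CPM in the higher and 17.7 CPM in the lower part in IL-4/C1q EV, 99.9 and 22.4 CPM in IL-1a/TNFa/C1q EV, 93.7 and 15.9 CPM in UT EV, and 152 and 25.7 CPM in MAPS. The ratio was 4.82 (3.11 to 7.92) for IL-4/C1q EV, 4.46 (3.87 to 5.17) for IL-1a/TNFa/C1q EV, 5.90 (4.88 to 7.18) for UT EV and 5.90 (5.38 to 6.46) for MAPS. Cells of the higher part were deeper, with medians of 2657 against 1697.5 UMIs in IL-4/C1q EV and 7789 against 4108.5 UMIs in MAPS.

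The split itself depends on depth, so it was repeated with each cell thinned to 1000 UMIs. The Cybb ratio was then 2.001 (1.53 to 2.64) for IL-4/C1q EV, 2.85 (2.06 to 3.88) for IL-1a/TNFa/C1q EV, 3.45 (2.45 to 4.79) for UT EV and 3.35 (2.47 to 4.48) for MAPS. Cyba kept a smaller ratio, of 1.04 (1.01 to 1.08) for IL-4/C1q EV, 1.19 (1.13 to 1.25) for IL-1a/TNFa/C1q EV, 1.23 (1.17 to 1.29) for UT EV and 1.38 (1.24 to 1.52) for MAPS. Ncf1 had intervals that included 1 in all 4 libraries, from 0.992 (0.813 to 1.2004) in MAPS to 1.08 (0.822 to 1.40) in IL-1a/TNFa/C1q EV. Hmox1 had intervals below 1 in 3 libraries, at 0.770 (0.625 to 0.938) for IL-1a/TNFa/C1q EV, 0.706 (0.583 to 0.850) for UT EV and 0.691 (0.567 to 0.835) for MAPS. In IL-4/C1q EV it stood at 0.997 (0.876 to 1.14). Whether the libraries differ in this ratio was not tested. Cluster 23, whose leading genes include the interferon-induced Ifit2 and Mx1, was not the highest in Cybb. It held 39.1 CPM in IL-4/C1q EV and 56.8 CPM in UT EV, below clusters 20, 22 and 24 of each. In IL-1a/TNFa/C1q EV it held 66.3 CPM, above cluster 20 at 46.2 CPM and below clusters 22 and 24. Its ratio to cluster 32 was 3.50 (2.60 to 4.77) for IL-4/C1q EV, 6.76 (4.18 to 10.6) for IL-1a/TNFa/C1q EV and 6.58 (4.11 to 10.3) for UT EV.

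The same split by 9 disease-associated genes, which mark microglia around damage, gave larger Cybb ratios. Among the 9 were Spp1 and Cst7, which lead cluster 20, and Gpnmb, which leads the macrophage cluster 24. With all UMIs nearly every cell held 3 or more, and the lower part was 105 cells in IL-4/C1q EV, 204 in IL-1a/TNFa/C1q EV, 168 in UT EV and 72 in MAPS, with 0, 1, 0 and 1 Cybb UMIs. In cells thinned to 1000 UMIs the Cybb ratio was 8.80 (2.41 to 72.99) for IL-4/C1q EV, 6.84 (2.64 to 25.3) for IL-1a/TNFa/C1q EV, 11.2 (3.07 to 93.6) for UT EV and 9.58 (5.63 to 17.7) for MAPS. The lower part then held 2, 4, 2 and 14 Cybb UMIs in IL-4/C1q EV, IL-1a/TNFa/C1q EV, UT EV and MAPS. These ratios lay above those of the interferon split in each library, with intervals apart in MAPS and overlapping in the EV libraries. Ncf1 in the thinned cells stood at 1.18 (0.829 to 1.74) for IL-4/C1q EV, 0.767 (0.613 to 0.971) for IL-1a/TNFa/C1q EV, 0.926 (0.710 to 1.23) for UT EV and 0.863 (0.788 to 0.946) for MAPS.

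**Figure D5:**
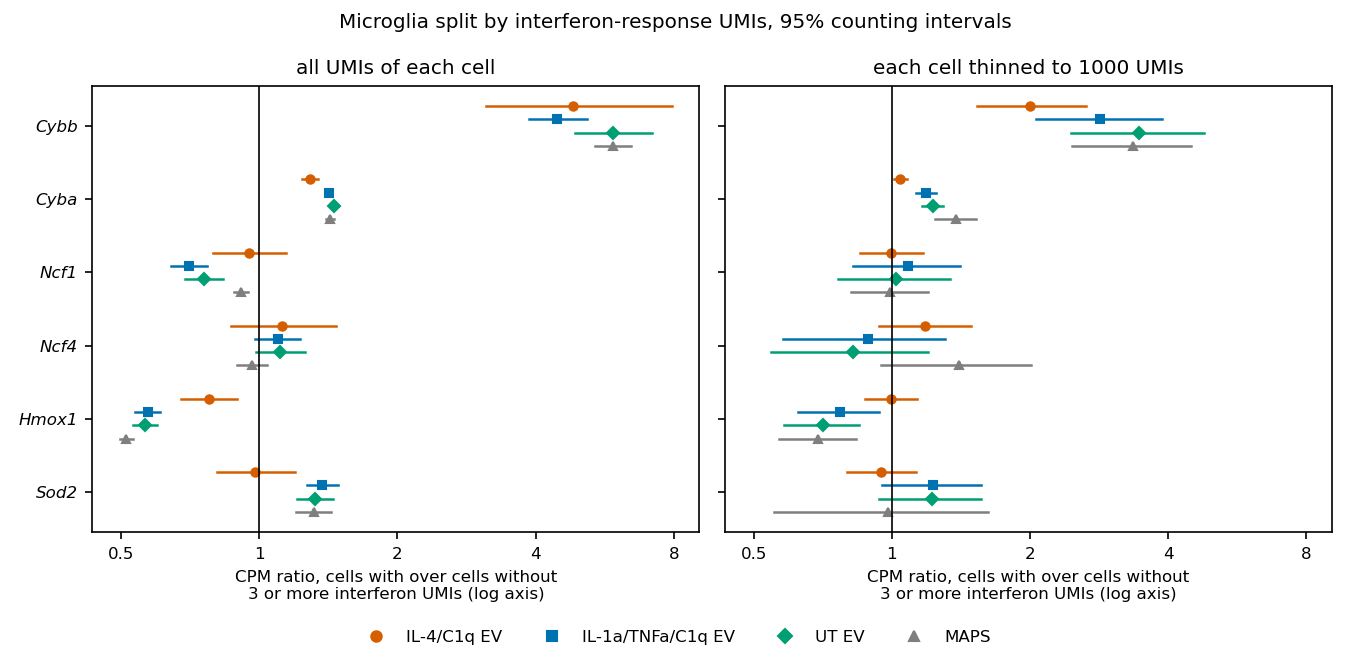
Ratio of CPM (log axis) between microglia with and without 3 or more interferon-response UMIs for 6 genes, with 1 symbol per library and lines for 95% counting intervals, from all UMIs on the left and from cells thinned to 1000 UMIs on the right. Cybb lies right of 1 in all 4 libraries in both panels, at 4.46 to 5.90 on the left and 2.001 to 3.45 on the right.

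The interferon-response list itself differed between IL-4/C1q EV and the other EV libraries, while few genes of the lists around the 7 genes passed among them. In microglia all 12 interferon-response genes were higher in IL-4/C1q EV than in UT EV, with a median log2 ratio of 1.86 against -0.05 over all genes. Oasl2, an antiviral gene, stood at 54.99 CPM in IL-4/C1q EV against 8.50 CPM in UT EV, and Irf7, a driver of interferon genes, at 80.4 CPM against 18.5 CPM. The ratio of Cybb in the whole class, 1.28, was thus small beside these. Of the oxidase partners 0 of 7 passed, of peroxide and superoxide removal 0 of 14, of Nrf2 and its targets 0 of 12 and of nitric oxide and arginine genes 0 of 9. Over all genes 1.67% passed in either direction, so 0 in lists this small says little about them. Of 10 haem and iron genes, 1 passed. That gene was Hp, which binds free haemoglobin, with 6.03 CPM in IL-4/C1q EV against 0.882 CPM in UT EV, a ratio of 6.84 (4.09 to 12.2). Neutrophil markers in gated microglia summed to 228 CPM in IL-4/C1q EV and 127 CPM in UT EV, and their part in the Hp levels was not tested. Over IL-1a/TNFa/C1q EV, where 2.35% of all genes passed in either direction, all 12 interferon genes were higher in IL-4/C1q EV. So was Keap1, which holds Nrf2 in check, at 20.8 CPM against 11.7 CPM. Its ratio of 1.78 (1.51 to 2.09) was brought to 1.65 by TMM scaling, where it did not pass.

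In monocyte/macrophages some arginine and peroxide genes passed. Arg1 and Arg2, which compete with nitric oxide synthases for arginine, were higher in IL-4/C1q EV than in UT EV, at 11.1 against 2.19 CPM with a ratio of 5.07 (1.80 to 19.7) for Arg1 and at 18.8 against 4.93 CPM with a ratio of 3.82 (1.88 to 8.79) for Arg2. Both rest on few UMIs. The list had 2 of 6 genes higher, where 1.83% of all genes passed in either direction. For IL-4/C1q EV over IL-1a/TNFa/C1q EV, 0 of 6 genes of this list passed, where 3.03% of all genes did. For IL-1a/TNFa/C1q EV over UT EV, 1 of 5 was higher, where 3.32% of all genes passed. Prdx1, which removes peroxide, was the only one of 14 in its list to pass, lower at 981 against 1562 CPM, a ratio of 0.629 (0.597 to 0.662) that TMM scaling brought to 0.650, where it did not pass. Against UT EV, IL-1a/TNFa/C1q EV had Prdx5 at 1689 against 1065 CPM, a ratio of 1.59 (1.503 to 1.67), and Slc7a11, the cystine importer that feeds glutathione, at 64.3 against 29.6 CPM, a ratio of 2.17 (1.59 to 3.01), where 3.32% of all genes passed. Hp had a ratio over UT EV of 2.17 in IL-4/C1q EV and 2.37 in IL-1a/TNFa/C1q EV.

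Against MAPS the lists moved apart in microglia. Of the oxidase partners 6 of 7 were lower in UT EV, with a median log2 ratio of -1.28 against -0.82 over all genes. Hvcn1, the proton channel that lets the oxidase keep running, had a ratio of 0.272, and Cybc1, the chaperone of the membrane subunits, 0.319. Of peroxide and superoxide genes 7 were higher and 3 lower of 15, among them Txn1 at 3.17, Prdx5 at 2.53 and catalase (Cat) at 0.267. Of haem and iron genes 2 were higher and 3 lower of 10, with Blvrb, which acts after Hmox1 on biliverdin, at 3.73 and the iron exporter Slc40a1 at 0.216. Of Nrf2 and its targets 7 of 13 were lower and 0 higher, with Bach1, a repressor of Hmox1, at 0.320. Of nitric oxide and arginine genes 2 of 8 were lower, Asl and Slc7a2. TMM scaling ended the call for Asl (1.001) and Slc7a2 (0.751) and kept it for Hvcn1 (0.513), Cybc1 (0.602), Cat (0.504), Bach1 (0.603), Slc40a1 (0.408), Txn1 (5.98), Prdx5 (4.78) and Blvrb (7.03). These shares stand beside 54.4% of all genes lower and 8.08% higher.

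Across 63 sums of a class and a library with at least 50 cells, the genes closest to each member by Pearson correlation of log2(CPM + 1) were mostly leukocyte genes. For Cybb they were Clec12a (r = 0.86), Pirb (0.83) and Spi1 (0.83), for Ncf1 Mpeg1 (0.90), Unc93b1 (0.89) and Themis2 (0.88), and for Ncf4 Cd52 (0.92), Gmfg (0.92) and Lcp1 (0.90). For Cyba they were Psmb8 (0.92), Psmb9 (0.90) and Gngt2 (0.90), and for Hmox1 Hexa (0.88) and Ctsb (0.81). Sod2 had mitochondrial genes nearest, Ndufc1 (0.78), Ndufab1 (0.77) and Mcee (0.77). Among the members Cyba and Ncf4 were closest (0.80), then Cybb and Ncf1 (0.76), and Sod2 ran against Ncf1 (-0.38) and Ncf4 (-0.33). The sums share libraries and depth, so these values only describe the tables, and Nos2 had too few UMIs to be placed.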

How the data were processed

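The deposited matrices of the 4 libraries hold whole UMI counts for each gene in each barcode, and 0 columns were unmapped. They were written by Cell Ranger 8.0.1, per the file headers. Build GRCm39, Seurat 4.1.0, bcl2fastq 5.0.1 and another Cell Ranger version, 7.0.0, stand in the submitters' processing notes, and how the authors filtered barcodes is not given in the sources used here. A cell was kept from 500 UMIs and 300 detected genes upwards if mitochondrial UMIs made up no more than 20%, and scrublet's doublets (3.94% to 4.94% of cells) were then taken out. Barcode totals started at 500 UMIs, except for IL-1a/TNFa/C1q EV, where they started at 1233. A cell took the class with the highest share of detected markers, with at least 3 detected, and ties were left out. That assigned 92.0% to 97.5% of cells, and classes are described from 50 cells up.

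UMIs were summed per library and class. CPM are those sums per 1000000 UMIs of the class. Intervals are 95% and exact: Poisson for levels, Clopper-Pearson for shares and conditional binomial for ratios. They cover counting error alone, and with 1 library per group no test between groups was made. Genes needed 30 UMIs in both libraries together, and a count of 0 was given a limit of 3 counts. Thinning drew 1000 UMIs per cell and left out shallower cells. Leiden clusters (scanpy 1.11.5, igraph 0.11.9; 3000 variable genes, 40 components, 15 neighbours, resolution 1) were made without the 7 genes and gave 40 clusters, 1 of them with no name.

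The alternatives were Leiden clusters in place of the gate, TMM factors from edgeR 4.0.16 in R 4.3.3, thinned cells, doublets kept, a floor of 1233 UMIs in every library, a limit of 10% mitochondrial UMIs, a gate of 4 markers and no UMI minimum for a gene. Python 3.11.15, numpy 2.4.6, scipy 1.17.1 and pandas 2.3.3 were used, and the interval code was tested on simulated data. The members, marker lists and gene lists were chosen with earlier results of these data known. Genes named beside the members were, per list and comparison, at most the 4 past 1.5-fold with the interval bound farthest from 1, and the 3 with the highest correlation among genes with at least 500 UMIs, of which some are not reported here. Lyz2, Hbb-bs and the levels by cluster were chosen after values were seen.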

Additional observations from a re-analysis of the deposited data

How the results depend on the processing

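No paired analysis was possible because each group had 1 library. In microglia, the count of members past 1.5-fold for IL-4/C1q EV over UT EV was 0, and became 1 (Hmox1, lower) with Leiden clusters, with doublets kept and with thinned cells, where its ratio was 0.563, 0.633 and 0.584. In monocyte/macrophages, the count for IL-4/C1q EV over IL-1a/TNFa/C1q EV was 0, and became 1 (Sod2, lower) with Leiden clusters and with TMM factors, and 1 (Nos2, higher) with no UMI minimum. In neutrophils, the count for IL-4/C1q EV over UT EV was 0, and became 1 (Cybb, higher) with Leiden clusters and with the gate of 4 markers. The Hmox1 ratio of UT EV over MAPS in microglia turned from 0.611 to 1.15 with TMM factors. Of the single ratios, 22 moved beyond their counting interval with Leiden clusters and 20 stayed within it. With TMM factors 19 moved, 1 reversed and 22 stayed. With thinned cells 18 moved and 23 stayed, and with the stricter gate 3 moved and 38 stayed. With doublets kept, the UMI floor, the lower mitochondrial limit or no UMI minimum, 0 moved. The causes were not tested. Depth limits Nos2 most, with 140 UMIs in all.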

Other observations

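Among microglia thinned to 1000 UMIs, Hmox1 was detected in 13.3% of cells with a Cybb UMI and 12.8% of the rest in IL-4/C1q EV, and in 15.9% and 16.1% in IL-1a/TNFa/C1q EV. In UT EV the shares were 14.6% and 19.3%, and in MAPS 19.8% and 23.5%.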
